A study of Mus musculus and Rattus norvegicus with 11 samples.

Results

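Plasmacytoid dendritic cells (pDC) of NOD mouse peripheral nerve were described from single-cell RNA libraries. The cells were those that the authors' deposited annotation names pDC in the 6 NOD libraries, 55 of 10474 NOD cells with a cell type name and of 15672 such cells over all 9 mouse libraries. NOD is an inbred strain that develops spontaneous autoimmunity. Of these, 3 libraries carry the tag ICAM-1-1/-NOD, which the series' design text gives as ICAM-1-/-NOD, that is, NOD mice labelled as lacking Icam1, a cell-surface ligand of leukocyte integrins, and the series describes this strain as a model of chronic autoimmune neuritis. The other 3 libraries are NOD control and hold 2 numbered samples, because control 2 was run as libraries 2-1 and 2-2, which were summed. Cells came from sciatic nerves and brachial plexus of perfused mice, were freed by enzymes, depleted of myelin, sorted as live cells and captured as 3′ transcripts with unique molecular identifiers (UMIs). Age, sex, whether a deletion of Icam1 was checked, and whether libraries came from separate animals are not stated in the labels, so tests over samples measure the spread between these samples, which may be technical.

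Plasmacytoid dendritic cells are rare cells of the blood and lymphoid organs that patrol for viral and self nucleic acids through endosomal Toll-like receptors and are known for secreting large amounts of type I interferon. The transcription factor Tcf4 sets and maintains their identity, Irf8 is needed in dendritic cell development, and Siglec-H is a surface lectin that in the mouse marks these cells and signals through the adaptor Tyrobp (DAP12). They carry secretory machinery reminiscent of plasma cells and present antigen less well than conventional dendritic cells until activated. The comparison cells were MC and BC of the same libraries, the authors' codes for clusters that here carried the macrophage and monocyte genes (MC) and the B cell genes (BC). MC also carried conventional dendritic cell genes.

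The knockout-labelled libraries gave 14, 20 and 12 pDC and the control samples gave 4 and 5, with 2 cells of control 2 in library 2-1 and 3 in library 2-2. Library totals were 1217214 to 2235353 UMIs with a median of 591 to 1192 UMIs per barcode. The knockout-labelled libraries held 1575, 1825 and 1850 barcodes and the control libraries held 1400, 2000 and 2000. No barcode was shared among pDC, and at most 7 were shared between any pair of libraries. Transcripts of Icam1 were present in pDC of all 3 knockout-labelled libraries, at 219, 292 and 110 CPM (the UMIs of a gene scaled to the same UMI total in every library and cell type) and 28 UMIs in all, against 1 UMI in control pDC. A 3′ count outside a deleted part cannot check a deletion, so the genotype is used here as a label only.

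The cells named pDC carried the pDC markers, which is description only, since such genes took part in naming the cells. Siglech, the gene of Siglec-H (chromosome 7, 55768178-55778925, plus strand, GRCm38), gave a UMI in 38 of 46 knockout-labelled pDC, or 82.6% (95% exact binomial interval 68.6 to 92.2%), and in 6 of 9 control pDC. In the knockout-labelled libraries it gave a UMI in 3 of 211 MC, or 1.42%, in 3 of 3335 T cells, and in 0 of 1107 BC, which allows a share of cells with a UMI, not of expressing cells, of up to 0.271%. Median depth was 2710 UMIs in pDC, 2351 in MC, 1021 in BC and 955 in T cells. After every cell was thinned to 500 UMIs, Siglech remained in 39.1% of knockout-labelled pDC against 0.476% of MC and 0% of BC. Sh3bgr (chromosome 16, 96200450-96228935), which encodes a small protein of the SH3-binding glutamic acid-rich family, was seen in 29 of 46 knockout-labelled pDC, in 0 of 211 MC and in 5 of 1107 BC. Irf8 (chromosome 8, 120736358-120756694) was seen in 46 of 46 knockout-labelled pDC and in 9 of 9 control pDC, but also in 45.5% of MC, 35.7% of BC and 8.46% of T cells, so on its own it did not set pDC apart. All 3 markers were seen together in 27 of the 46 knockout-labelled pDC, 2 in 13 and 1 in 6, against 0, 6 and 3 cells among the 9 control pDC. No pDC lacked all 3.

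The bases before the start sites of 3 pDC genes are shown because Tcf4 and its partners bind E-boxes and because interferon-induced factors bind paired GAAA elements. The windows are 250 bases before the RefSeq start on GRCm38.p6, read 5′ to 3′ on the gene's strand, with matches in capitals. Siglech (chr7:55767934-55768183, plus strand) and Ccr9 (chr9:123766961-123767210, plus strand), a chemokine receptor of gut homing, have only E-box letters, CANNTG. Bst2 (chr8:71537473-71537722, minus strand), the antiviral protein tetherin that antibodies know as PDCA-1, has 1 E-box and 2 overlapping interferon elements, each a pair of GAAA repeats with 2 bases between them, printed as 1 run of capitals.
Siglech: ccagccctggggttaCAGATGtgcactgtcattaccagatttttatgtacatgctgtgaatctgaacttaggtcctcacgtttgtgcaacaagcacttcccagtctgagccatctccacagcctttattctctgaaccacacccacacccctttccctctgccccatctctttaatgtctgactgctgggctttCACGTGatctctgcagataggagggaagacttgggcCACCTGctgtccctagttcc
Ccr9: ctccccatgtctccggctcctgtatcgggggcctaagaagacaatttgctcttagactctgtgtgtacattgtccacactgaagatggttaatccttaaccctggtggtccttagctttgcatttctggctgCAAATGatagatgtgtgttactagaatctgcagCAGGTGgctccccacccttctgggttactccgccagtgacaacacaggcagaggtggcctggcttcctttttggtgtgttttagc
Bst2: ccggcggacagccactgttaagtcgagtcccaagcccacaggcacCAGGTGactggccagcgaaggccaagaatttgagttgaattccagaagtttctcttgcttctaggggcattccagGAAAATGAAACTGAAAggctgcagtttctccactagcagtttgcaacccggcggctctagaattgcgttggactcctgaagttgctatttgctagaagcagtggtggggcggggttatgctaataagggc
The Siglech E-boxes start 235, 56 and 20 bases before the start site and those of Ccr9 118 and 85 bases before it. In Bst2 the E-box starts 205 bases before the start site and the interferon elements 130 and 124 bases before it. Of 32851 mouse promoter windows of this length, 66.2% hold an E-box and 2.98% the interferon element on either strand, so an E-box alone is common. Of the 15 genes with the largest fold described below, 11 had a window in the RefSeq table, and 8 of these 11 held an E-box, 1 the interferon element and 4 the PU box GAGGAA, which 23.3% of all windows hold. These are letter matches, not measured binding sites.

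Among all cells with a name, pDC made up more of the knockout-labelled libraries than of NOD control. They were 14 of 1540 cells (0.909%), 20 of 1784 (1.12%) and 12 of 1803 (0.666%) in the knockout-labelled libraries, against 4 of 1400 (0.286%) and 5 of 3947 (0.127%) in the control samples. The groups did not overlap, with means of 0.899 ± 0.228% (SD, n = 3) and 0.206 ± 0.113% (SD, n = 2). By edgeR's quasi-likelihood test over 11 cell types the log2 fold was 2.19 (SE 0.707, Benjamini-Hochberg adjusted p = 0.0322), in a comparison that called 7 of 11 types (63.6%). The exact two-sided permutation test over the 5 samples gave p = 0.1, the smallest that 10 splits allow. The edgeR call was lost without any of the knockout-labelled libraries (adjusted p = 0.168, 0.189 and 0.127 without libraries 1, 2 and 3), and without control 2 (log2 fold 1.62, adjusted p = 0.0603). It was also lost with RLE size factors (adjusted p = 0.0579) and with a replicate block (adjusted p = 0.197).

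Over leukocytes alone the groups did not stand apart. Leukocytes (BC, CD4, CD8, MC and pDC) were 91.5 to 91.9% of named cells in the knockout-labelled libraries, against 8.86% and 33.9% in the control samples. Of leukocytes, pDC were 0.992%, 1.23% and 0.725% in the knockout-labelled libraries, against 3.23% (4 of 124) and 0.374% (5 of 1338) in the control samples. The knockout-labelled values lay between those of the 2 controls, and the log2 fold was -0.10 (SE 1.16, edgeR adjusted p = 0.937; 3 of 5 types called, 60.0%). Without control 1, which held only 124 leukocytes, the log2 fold was 1.37 (adjusted p = 0.0201), and without control 2 it was -1.71 (adjusted p = 0.0511), so the value rests on both control samples.

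Set against MC, the other myeloid class, pDC were more frequent in the knockout-labelled libraries. They were 14 of 77 cells of the joint class of MC and pDC (18.2%), 20 of 90 (22.2%) and 12 of 90 (13.3%) there, against 4 of 75 (5.33%) and 5 of 154 (3.25%) in NOD control. Means were 17.9 ± 4.45% (SD, n = 3) and 4.29 ± 1.48% (SD, n = 2), a difference of 13.6 percentage points, and the lowest knockout-labelled share was above the highest control share. The exact two-sided permutation p of 0.1 is again the smallest this design allows. Set against BC the groups did not stand apart. Of BC and pDC together, pDC were 3.88%, 4.99% and 3.07% in the knockout-labelled libraries, against 36.4% (4 of 11) and 0.694% in NOD control. The difference of means was -14.55 percentage points (exact two-sided permutation p = 0.4), and the knockout-labelled values lay between the controls. MC as a share of all named cells had a log2 fold of -0.10 (edgeR adjusted p = 0.85), but as a share of leukocytes MC was called lower, with a log2 fold of -2.88 (adjusted p = 0.0391).

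**Figure D1:**
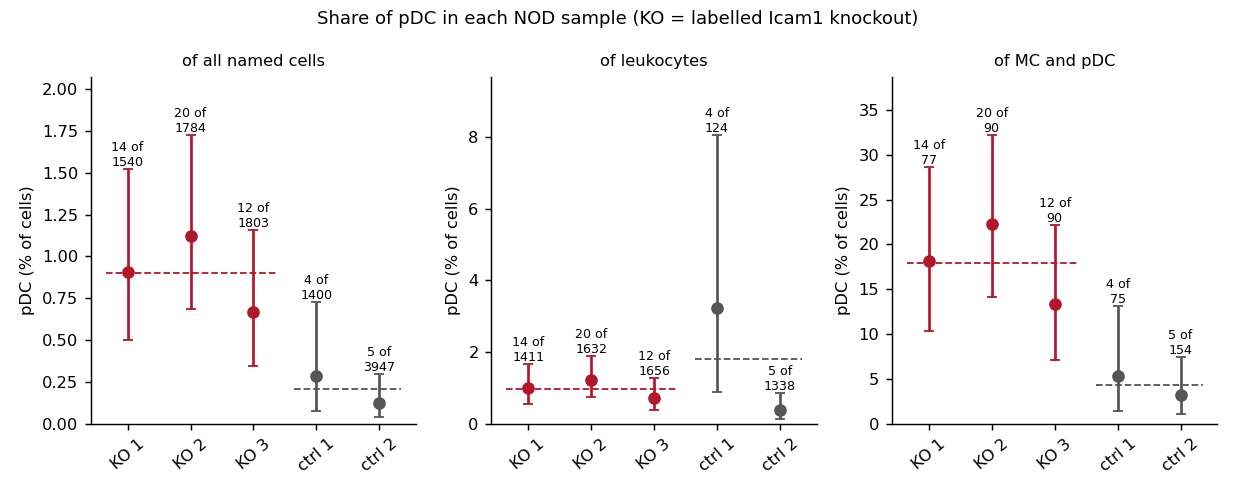
Percent of cells named pDC in each of the 3 NOD libraries labelled Icam1 knockout (KO) and the 2 NOD control samples (ctrl), of all named cells, of leukocytes, and of MC and pDC together; bars are 95% exact binomial intervals for counting error only and dashed lines group means. The KO samples lie above both controls of all named cells and of MC and pDC, but between them of leukocytes.

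In the knockout-labelled libraries pDC were RNA-rich cells. Their median was 3234, 2668 and 2222 UMIs per cell in libraries 1, 2 and 3, against 2870, 2330 and 2202 in MC and 1192, 989 and 912 in BC. The mean of medians was 2708 ± 508 in pDC, 2468 ± 354 in MC and 1031 ± 145 in BC (SD, n = 3 libraries). The excess over BC was 1677 UMIs, in 3 of 3 libraries, with an exact two-sided permutation p of 0.1 (0.2 adjusted over the 2 pairs). That is the smallest p that unpaired splits of these medians allow. The excess over MC was 240.5 UMIs, also in 3 of 3 libraries (exact permutation p = 0.6), and the ranges overlapped. Both tests leave out that the types share libraries. At an equal depth of 500 UMIs per cell, pDC showed a median of 377.5 genes against 332 in MC and 332 in BC. In NOD control the medians at that depth were 368 genes in pDC, 322 in MC and 318 in BC.

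Genes were then compared between pDC, MC and BC within the 3 knockout-labelled libraries, which hold 46 of the 55 pDC. UMIs were summed per library and type and expressed as CPM. Since these genes took part in naming the cells, the comparison carries no test. A gene was called higher when its pooled CPM was at least 2-fold that of both MC and BC and pDC was highest in each library. By this rule 400 of 2387 genes with at least 10 UMIs in pDC were higher (16.8%) and, in the other direction, 326 of 4997 genes with at least 10 UMIs in MC and in BC were lower (6.52%). Scaling by the trimmed mean of M values (TMM) in place of total UMIs shifted every log2 fold by -0.68 over MC and -0.71 over BC and gave 172 genes higher and 723 lower. The higher genes were then 19.2% of all calls, against 55.1% with total scaling. All 172 were among the 400, and folds below are on total scaling. The shares of all tested genes to set beside the counts for each gene list are thus 16.8% higher and 6.52% lower with total scaling, and 7.21% higher and 14.5% lower with TMM. Members of a list below these UMI limits could not be called, so a count over a whole list understates the share among its testable members.

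The surface and identity genes of pDC carried the clearest signal. Of 22 such genes, 19 had at least 10 UMIs, 17 were called higher (16 with TMM) and none lower, beside the 16.8% of all genes. The median log2 fold over the 22 genes was 3.92 over MC and 5.46 over BC, against 0.60 and 0.56 over the 2387 genes. Siglech stood at 1225, 934 and 730 CPM in pDC, against 21.6, 5.76 and 0 CPM in MC and 0 in BC of each library. That was 108-fold over MC and at least 400-fold over BC, taking 3 UMIs over the pooled BC as the floor. Ccr9 was even across libraries, at 1072, 954 and 876 CPM in pDC, with 2 UMIs in all MC and 3 in all BC. Sh3bgr varied more, at 656, 740 and 219 CPM, at least 107-fold over MC, where no UMI was found, and 143-fold over BC. Irf8 was at 3304, 2647 and 3139 CPM in pDC, 6.32-fold over MC (475 ± 56.6 CPM) and 6.22-fold over BC (485 ± 64.6 CPM, SD, n = 3). Every one of these genes was highest in pDC in 3 of 3 libraries.

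**Figure D2:**
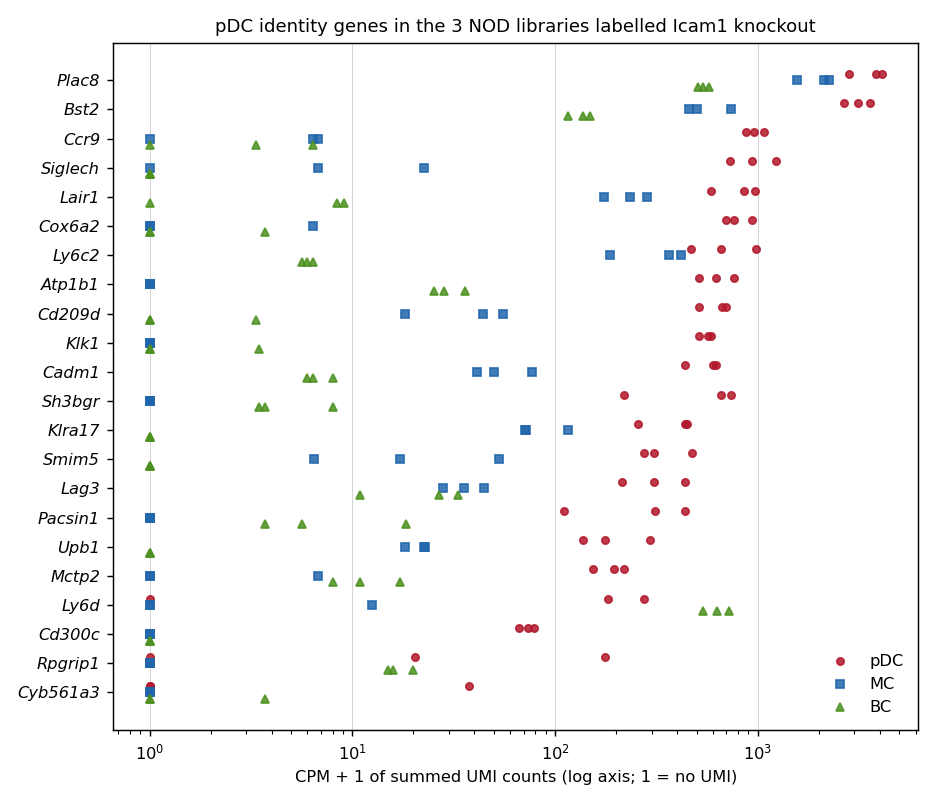
CPM of the 22 pDC identity genes in pDC, MC and BC (3 points each, the NOD libraries labelled Icam1 knockout), on a log axis of CPM + 1 where 1 means no UMI. Most genes are near or above 100 CPM in pDC and near zero in BC, while Plac8 and Ly6d are shared with MC or BC.

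The 15 genes with the largest fold over both types also included genes with no classical role in immunity. Cox6a2, a muscle-type subunit of cytochrome c oxidase, had 102 UMIs in pDC (766, 934 and 694 CPM) with 1 UMI in all MC and 1 in all BC. Klk1, a tissue kallikrein protease, stood at 569, 584 and 511 CPM with no UMI in MC and 1 in BC, and its family member Klk1b27 had 40 UMIs in pDC. The kallikrein genes are near-identical copies, so how their reads were split is uncertain. Atp2a1, a calcium pump of muscle, had 33 UMIs in pDC and 1 UMI in each of MC and BC. Atp1b1, a sodium pump subunit, averaged 633 ± 128 CPM in pDC, at least 118-fold over MC and 22.4-fold over BC (28.8 ± 5.56 CPM). Cd209d, a C-type lectin, averaged 624 ± 100 CPM, 16.6-fold over MC. The others were Sh3bgr, Siglech, Ccr9, Pacsin1 (39 UMIs), Rell1 (35), Cd59a (30) and the predicted genes Gm5547 (39), Gm49087 (30) and Gm21762 (30). Bst2 stood below these 15 in fold, at 3107, 3561 and 2664 CPM in pDC, 5.64-fold over MC and 24.2-fold over BC, and was found in 46 of 46 cells. Also called higher were Lair1, Ly6c2, Cadm1, Klra17, Smim5, Lag3, Upb1 and Mctp2, from 189 ± 33.3 CPM for Mctp2 to 803 ± 199 CPM for Lair1. The exceptions were Plac8, at 3582 ± 671 CPM in pDC and 1.77-fold over MC, and Ly6d, at 152 ± 139 CPM in pDC against 629 ± 92.4 CPM in BC.

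Of 12 pDC transcription factors, 4 were called higher with either scaling and none lower, beside 16.8% of all genes called higher (7.21% with TMM). Tcf4 stood at 678, 720 and 913 CPM in pDC, 16.9-fold over MC and 4.47-fold over BC. Runx2, which in mice guides pDC exit from marrow, was 15.2-fold over MC and 40.6-fold over BC from 21 UMIs, and Tsc22d1 averaged 786 ± 59.5 CPM, 9.59-fold and 26.1-fold. Factors shared with B cells failed the rule on that side alone. Spib was 27.0-fold over MC but 1.69-fold over BC, Bcl11a 18.7-fold and 1.75-fold, and Mef2c 6.27-fold and 0.82-fold. The myeloid factor Spi1 (PU.1) was at 91.6 ± 16.2 CPM in pDC, against 421 ± 29.2 CPM in MC.

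The sensing machinery was present and interferon transcripts were almost absent. Of 13 genes of endosomal nucleic acid sensing, 7 had at least 10 UMIs and 4 of these were called higher, beside 16.8% of all genes. With TMM 1 of the 7 was called, Tlr7, beside 7.21% of all genes, and 1 gene cannot be told from that background. Tlr7, the receptor of single-stranded RNA, stood at 109, 77.9 and 146 CPM in pDC, 4.04-fold over MC and 5.72-fold over BC, from 13 UMIs. Unc93b1, which carries these receptors to endosomes, averaged 1132 ± 212 CPM, Slc15a4, a transporter needed for their signals, 225 ± 34.4 CPM, and Pld4, an endosomal nuclease, 1399 ± 85.0 CPM, 2.48-fold over MC and 12.5-fold over BC. Tlr9 had no UMI in pDC, MC or BC. Irf7, which drives interferon genes, had 722, 292 and 365 CPM in pDC, against 333 ± 51.0 CPM in MC, and was not called. Of 17 type I and III interferon genes, 16 had no UMI in the 124480 UMIs of knockout-labelled pDC, where 3 UMIs correspond to 24.1 CPM, and Ifnl2 had 1 UMI. All 17 were at 0 in the 9313 UMIs of control pDC, where the same floor is 322 CPM.

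Among 25 type I interferon response genes, 18 had at least 10 UMIs in MC and in BC. Of these 18, 5 were called lower (10 with TMM), beside 6.52% of all genes (14.5% with TMM). The 5 were Ifit1, Ifit3, Oasl1, Rtp4 and Ddx58. Only 6 of the 25 had at least 10 UMIs in pDC. Of these 6, 1 was called higher with either scaling, Bst2, beside 16.8% of all genes (7.21% with TMM). Bst2 thus carried 3111 ± 448 of the 4628 ± 779 summed CPM of the list in pDC, against 564 ± 150 of 3362 ± 237 in MC. In all 7 members had no UMI in pDC, and these lower calls rest on low levels in MC and BC, such as 66.8 ± 25.1 and 19.3 ± 6.82 CPM for Ifit3. Of the 7 interferon receptor and kinase genes, 1 was called higher with either scaling and 1 lower (2 with TMM), beside the same shares of all genes. Ifnar2, a chain of the type I interferon receptor, was higher at 678 ± 114 CPM, 4.57-fold over MC and 21.6-fold over BC. Ifngr1, a chain of the interferon gamma receptor, was lower, at 77.8 ± 36.7 CPM in pDC, against 344 ± 34.9 CPM in MC and 193 ± 9.97 CPM in BC.

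Siglec-H signals through Tyrobp. This adaptor was at 4814, 3192 and 3577 CPM in pDC, 2.04-fold over MC and 75.2-fold over BC, a call that was lost with TMM. The kinase Btk had no UMI in pDC and was called lower, against 29.6 ± 8.32 CPM in MC and 78.6 ± 5.68 CPM in BC. Blnk, a linker shared with B cell receptor signalling, averaged 258 ± 160 CPM in pDC, 11.2-fold over MC and 1.78-fold over BC.

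Secretory and lysosomal genes gave few calls with TMM. Of 15 genes of the secretory pathway and unfolded protein response, 5 were called higher (1 with TMM) and none lower, beside 16.8% of all genes called higher (7.21% with TMM). Their summed level was 8113 ± 566 CPM in pDC, against 4205 ± 48.7 CPM in MC and 3116 ± 66.3 CPM in BC. Xbp1, the transcription factor that expands the endoplasmic reticulum, was the call that held with TMM, at 1400, 1265 and 1533 CPM in pDC, 6.83-fold over MC and 11.7-fold over BC. The chaperone Hsp90b1, Herpud1, Sec11c and Creld2 were 2.31-fold to 2.80-fold over MC. Of 14 endolysosomal genes, 3 were called higher (2 with TMM), beside the same background. Ctsl, a cysteine protease, averaged 648 ± 55.3 CPM in pDC, 7.93-fold over MC and 41.8-fold over BC. Grn, progranulin, stood at 2429, 2102 and 1387 CPM, 5.30-fold and 63.7-fold, and Ctsb averaged 3534 ± 274 CPM, 2.01-fold and 25.7-fold. Other proteases were at or below MC, such as Ctss, which processes class II peptides, at 1169 ± 175 CPM in pDC, against 3695 ± 106 CPM in MC.

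Transcripts of MHC class II presentation genes were low in pDC. Of 10 genes measured, 9 were called lower (10 with TMM), beside 6.52% of all genes, and none higher. H2-DMb1 alone missed the rule with total scaling. The summed level was 20000, 38550 and 20440 CPM in pDC, against 93340 ± 3243 CPM in MC and 77940 ± 2978 CPM in BC, and each pDC value was below every MC and BC value. Cd74, the invariant chain, stood at 13630, 23570 and 14310 CPM in pDC, against 56060 ± 2800 CPM in MC. Ciita, the master activator of these genes, had 1 UMI in pDC, against 68.3 ± 7.86 CPM in MC and 97.9 ± 10.4 CPM in BC. Per cell, Cd74 took 0.0505% to 6.15% of UMIs over the 46 pDC with a median of 1.59%, against a median of 4.60% in MC and 4.96% in BC, so the pDC spread widely but sat low. In control pDC the medians were 2.03% and 1.81% in samples 1 and 2.

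**Figure D3:**
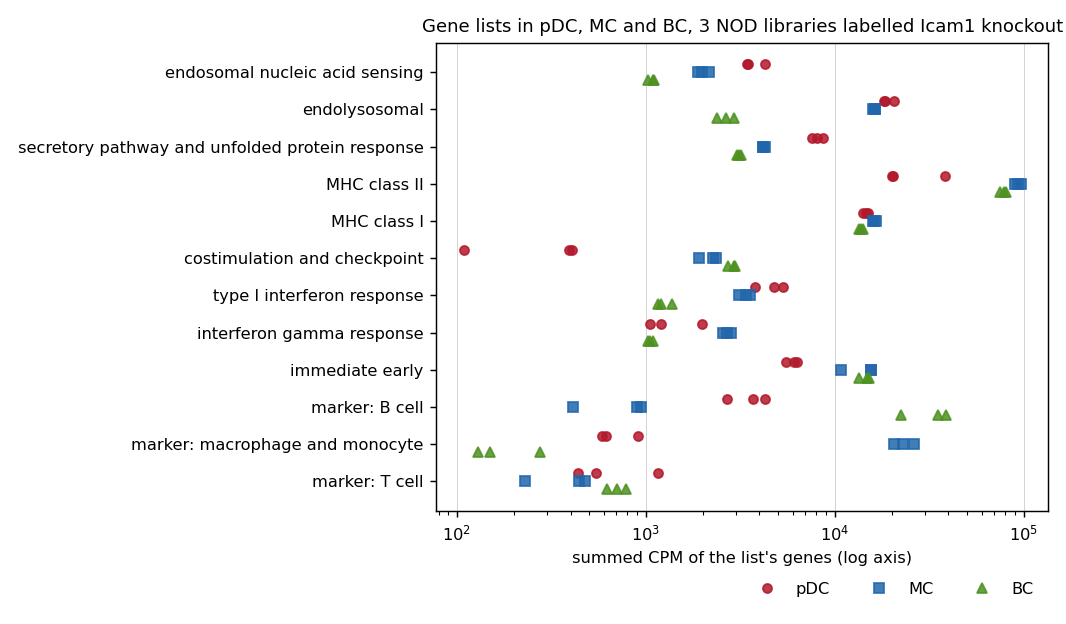
Summed CPM of 12 gene lists in pDC, MC and BC of the 3 NOD libraries labelled Icam1 knockout, on a log axis, 1 point per library. MHC class II and costimulation genes lie lower in pDC than in MC and BC, secretory genes lie higher, and MHC class I lies close together in all 3 types.

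**Figure D4:**
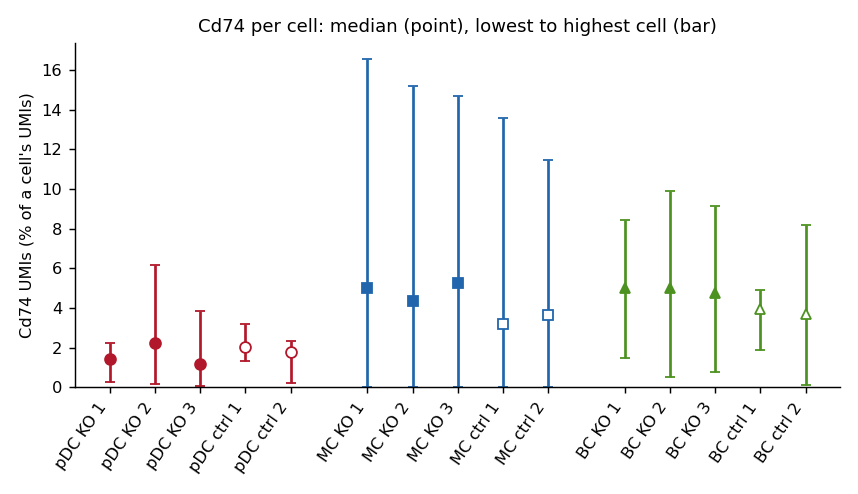
Cd74 UMIs as a percent of each cell's UMIs by type and sample, with the median as a point and a bar from the lowest to the highest cell; KO, filled, are the libraries labelled Icam1 knockout and ctrl, open, the NOD control samples. The pDC medians are between 1.15% and 2.24%, below the MC and BC medians of every sample.

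MHC class I did not share this pattern. None of its 10 genes was called in either direction with total scaling, beside 16.8% of all genes higher and 6.52% lower. With TMM 1 was called lower, beside 14.5% of all genes, and none higher. The summed level was 14520 ± 440 CPM in pDC, against 16230 ± 352 CPM in MC and 13770 ± 346 CPM in BC. Of 10 costimulation and checkpoint genes, 6 were called lower with either scaling (Cd83, Cd86, Cd40, Icosl, Cd274 and Cd80), beside 6.52% of all genes (14.5% with TMM). Cd83, a maturation marker, was at 154 ± 118 CPM in pDC, against 1431 ± 312 CPM in MC and 2211 ± 134 CPM in BC. Immediate early genes, which cells switch on within minutes of a stimulus, gave 6 of 16 called lower (12 with TMM) and none higher, beside 6.52% of all genes lower (14.5% with TMM). Junb was at 853, 759 and 730 CPM in pDC, against 3419 ± 690 CPM in MC and 3097 ± 147 CPM in BC.

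Calls among homing and adhesion genes differed by list. Of 13 trafficking receptors, 7 had enough UMIs to be called higher and 7 to be called lower. With TMM 2 were called higher and 2 lower, beside 7.21% and 14.5% of all genes. With total scaling none was called lower and 3 were called higher, beside 6.52% and 16.8% of all genes. Besides Ccr9 these were Cxcr3, a receptor of interferon-induced chemokines, at 142 ± 67.0 CPM and 6.33-fold over MC, and Selplg, the selectin ligand PSGL-1, at 861 ± 249 CPM and 2.75-fold over MC. Ccr2, which brings monocytes to inflamed tissue, was at 469 ± 26.7 CPM in pDC, against 504 ± 13.0 CPM in MC and 10.9 ± 3.93 CPM in BC. Cx3cr1, S1pr1 and Ccr6 had no UMI in pDC. Of 10 integrins and Icam genes, 5 had enough UMIs to be called higher and none was. Of the 7 that could be called lower, 2 were (3 with TMM), beside 6.52% of all genes (14.5% with TMM). The 2 were Itgal, the chain of the Icam1 receptor LFA-1, with 1 UMI in pDC, and Itga4, with 4 UMIs. Icam1 itself averaged 207 ± 91.8 CPM in knockout-labelled pDC, against 536 ± 51.7 CPM in MC and 105 ± 19.2 CPM in BC.

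Cytokine transcripts were few. None of 12 genes was called with total scaling, where 3 could be called higher and 5 lower, beside 16.8% and 6.52% of all genes. With TMM 1 was called lower, Ccl5, beside 14.5% of all genes. Ccl5 had 71 UMIs in pDC, 615 ± 226 CPM, against 2012 ± 408 CPM in MC and 1070 ± 213 CPM in BC, and Il6, Il12b, Il10 and Cxcl9 had none. Of 8 survival genes, 1 was called higher and 2 lower (4 lower with TMM), beside the same shares of all genes. The death regulator Bcl2l11 (Bim) was higher at 146 ± 33.4 CPM, 2.02-fold over MC, a call lost with TMM. Lower were Bcl2a1b (2 UMIs) and Bcl2a1d (0 UMIs). Of 12 proliferation genes, 7 had no UMI in pDC, Mki67 and Top2a among them. Of 17 interferon gamma response genes, 4 had at least 10 UMIs in pDC and none was called higher. Of the 13 that could be called lower, 3 were (7 with TMM), beside 6.52% of all genes (14.5% with TMM). The 3 were Gbp2, Gbp7 and Tgtp1.

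The 8 genes called lower with the smallest fold had 0 or 1 UMI in pDC. Cd72, an inhibitory receptor, had no UMI in pDC, against 320 ± 108 CPM in MC and 326 ± 26.4 CPM in BC, and the tetraspanin Cd81 had 1 UMI, against 286 ± 61.7 and 527 ± 48.6 CPM. Bcl2a1d, Dusp2, Gla, Gadd45a, Pglyrp1 and Neu1 made up the rest. Only 1258 of the 4997 genes tested for a lower level were abundant enough in MC and BC to give 10 UMIs in pDC, and 79 of these were called (6.28%). The 10 genes with the most UMIs in pDC, outside mitochondrial and ribosomal protein genes, were Malat1, Cd74, Fth1, Actb, Ubb, Psap, Tmsb4x, H3f3b, H2-D1 and Ftl1. Of these Tmsb4x, which binds actin monomers, was called lower, at 5982 ± 832 CPM in pDC, against 21580 ± 865 CPM in MC and 11920 ± 527 CPM in BC.

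Markers of other cell types were mostly low in knockout-labelled pDC. Of 16 macrophage and monocyte genes, 10 had no UMI, the C1q genes and Adgre1 among them, and the sum was 704 ± 183 CPM, against 23290 ± 2781 CPM in MC. Of the 23 Lyz2 UMIs, 19 came from 1 cell. All 6 neutrophil genes were at 0. Of 13 B cell genes 4 were at 0, Pax5 and Cd22 among them, Cd79a had 1 UMI, and the sum was 3559 ± 806 CPM, against 32110 ± 8467 CPM in BC. Most of that sum was Ighm, the IgM heavy chain gene, found in 45 of 46 pDC at 2538, 2355 and 2044 CPM, against 303 ± 33.4 CPM in MC and 3493 ± 1838 CPM in BC. After thinning to 500 UMIs it was in 63.0% of pDC against 11.4% of MC. Igkc, a light chain gene, had 103 UMIs in 25 of 46 pDC, 22 of them in 1 cell, and 762 ± 359 CPM, against 19890 ± 8377 CPM in BC. Ighm thus stood above Igkc in pDC of each library, while in BC the mean of Igkc stood above that of Ighm. Single cells weigh on these BC levels. In library 3, 1 cell held 1228 of 2086 Ighm UMIs and 1 cell 4087 of 7869 Igkc UMIs. In library 2, 1 cell held 6823 of 11129 Igkc UMIs. Per cell, the median shares of UMIs for Ighm and Igkc were 0.195% and 0.938% in knockout-labelled BC, against 0.189% and 0.0316% in pDC.

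T cell genes summed to 717 ± 394 CPM in pDC, against 383 ± 133 CPM in MC and 702 ± 80.9 CPM in BC. Cd8b1 was the 1 T cell gene called higher, from 17 UMIs, at 153, 136 and 110 CPM, and 15 of 46 pDC had a Cd8a or Cd8b1 UMI, 5 of them with a Cd3 or Trac UMI as well. Conventional dendritic cell genes summed to 2167 ± 547 CPM in pDC, against 8835 ± 744 CPM in MC and 677 ± 71.9 CPM in BC. Of these 15 genes 5 were at 0 in pDC, Zbtb46, Batf3 and Xcr1 among them. Flt3, the cytokine receptor of all dendritic cells, was called higher at 284 ± 27.6 CPM. Id2, which opposes Tcf4, was called lower at 38.1 ± 30.2 CPM, against 677 ± 53.8 CPM in MC. Of the 5 plasma cell genes Mzb1 had 17 UMIs and Jchain 2. Of the endothelial genes Cdh5, a junction cadherin, was called higher from 10 UMIs. NK cell genes were at 0 for 5 of 7, red blood cell genes for 2 of 5, Schwann cell genes for 4 of 7 and fibroblast genes for 2 of 6. The part that RNA of other cells has in these levels was not tested.

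Within pDC, the knockout-labelled and control cells could be described only from 124480 UMIs in 46 cells and 9313 UMIs in 9 cells. With 4 and 5 pDC in the control samples no gene test was run. Counts were pooled per group with 95% exact Poisson intervals, which cover counting error only. Of 1223 genes with at least 20 UMIs, 19 had an interval that lay higher in knockout-labelled pDC (1.55%) and 36 one that lay lower (2.94%). At a 2-fold difference of pooled CPM the counts were 292 higher (23.9%) and 117 lower (9.57%). Genes reached 20 UMIs mainly through knockout-labelled cells, and a gene with no control UMI counts as higher, so this filter favours higher calls. Without knockout-labelled library 2 the counts were 161 and 54 of 733 genes (22.0% and 7.37%). Without library 1 they were 172 and 68 of 774 (22.2% and 8.79%). The shares moved most without control 2, which leaves 1 control sample.

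MHC class I and several identity genes stood apart between the groups in this untested description. H2-D1, a class I heavy chain, stood at 5099, 6169 and 5292 CPM in knockout-labelled pDC, against 2594 and 1926 CPM in control pDC, and H2-K1 at 2035, 1966 and 1861 against 1297 and 482 CPM. The 10 class I genes summed to 14570, 14930 and 14050 CPM, against 8755 and 8348 CPM, without overlap, and in MC to 16230 ± 352 CPM, against 6691 and 7386 CPM. The 17 interferon gamma response genes summed to 1991, 1207 and 1058 CPM in knockout-labelled pDC, against 324 and 482 CPM in control pDC, again without overlap. The control pDC held only 4 UMIs of this list, with 14 of the 17 genes at 0. In MC the same list stood at 2685 ± 123 CPM, against 198 and 348 CPM, and in BC at 1061 ± 35.5 CPM, against 296 and 350 CPM, so the direction was not limited to pDC. The type I list summed to 5339, 4749 and 3796 CPM in knockout-labelled pDC, against 6809 and 6743 CPM in control pDC, a direction set by Bst2. Its other 24 genes summed to 2232, 1187 and 1131 CPM, against 973 and 642 CPM, so they lay higher in knockout-labelled pDC without overlap. That control level rests on very few UMIs, since Bst2 gave 18 and 38 of the 63 UMIs of the list in control pDC. The whole list was also higher in MC, at 3362 ± 237 CPM, against 650 and 610 CPM, and in BC, at 1247 ± 114 CPM, against 592 and 769 CPM.

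Bst2 stood at 3107, 3561 and 2664 CPM in knockout-labelled pDC, against 5837 and 6100 CPM in control pDC. Irf8 stood at 3304, 2647 and 3139 CPM, against 6161 and 4013 CPM. Cd209d was likewise lower without overlap, at 700, 662 and 511 CPM, against 2594 and 963 CPM. Ccr9 and Sh3bgr were the identity genes that lay higher in knockout-labelled pDC. Ccr9 pooled to 980 CPM (interval 814 to 1170), against 215 CPM (26.0 to 776) from 2 UMIs, and Sh3bgr to 595 CPM, against no UMI in control pDC, where 0 of 9 cells allows a share of cells with a UMI of up to 33.3%. Siglech was at 996 CPM, against 1289 CPM, with overlapping intervals.

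Among secreted and stress genes, Ccl5 lay higher, at 481, 487 and 876 CPM in knockout-labelled pDC, against 0 UMIs in both control samples, and Ccl4 lay lower, at 175, 389 and 402 CPM, against 1297 and 1766 CPM. Hsp90b1, Actb and Malat1 also lay higher and Jun lower, each without overlap of samples. Among 98 named genes with at least 20 UMIs, these 8 higher and 5 lower genes had intervals that lay apart and samples that did not overlap, beside 18 higher (1.47%) and 32 lower (2.62%) among all 1223 genes. These counts are not of like genes. Many named genes were chosen for many UMIs in knockout-labelled pDC, which narrows their intervals. Sh3bgr and Ccl5 reached 20 UMIs through knockout-labelled cells alone.

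Other measures moved with the groups and their part in these differences was not tested. Median depth was 3234, 2668 and 2222 UMIs per pDC in the knockout-labelled libraries, against 778, 970 and 1395 in control libraries 1, 2-1 and 2-2. Mitochondrial transcripts took 2.79 to 2.99% of UMIs in knockout-labelled pDC, against 0.713 and 1.59% in control pDC, and ribosomal protein transcripts 11.4 to 12.0%, against 18.8 and 15.5%. Of the 19 genes whose interval lay higher, 6 were mitochondrial, and of the 36 that lay lower, 13 encoded ribosomal proteins. T cell genes summed to 438, 545 and 1168 CPM in knockout-labelled pDC, against 0 and 160 CPM. Fibroblast genes summed to 219, 19.5 and 73.0 CPM, against 648 and 963 CPM, and Schwann cell genes to 43.8, 77.8 and 36.5 CPM, against 0 and 963 CPM.

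**Figure D5:**
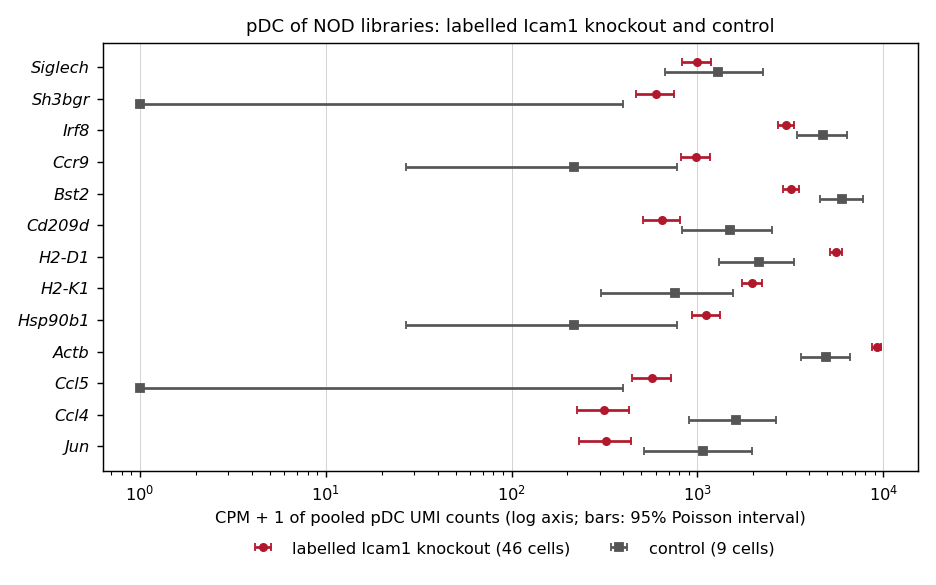
Pooled CPM of 13 genes in pDC of NOD libraries labelled Icam1 knockout (46 cells) and of NOD control (9 cells), on a log axis of CPM + 1, with 95% Poisson intervals. Intervals overlap for Siglech and lie apart for the other 12 genes, with control at the edge of the axis for Sh3bgr and Ccl5, which had no UMI there.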

How the data were processed

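Single-cell suspensions of NOD nerves were captured with the 10x 3′ version 2 chemistry, per the labels' protocols. Cell Ranger 3.0.2 and the mm10 build are named in the submitters' processing notes. The deposited matrix holds UMI counts per gene and cell, and the authors' deposited cell names were used as they stand. Sequencing ran on either of 2 instruments, and which library ran on which is not given in the sources used here. Doublet removal by the authors is also not given in the sources used here. Scrublet (scanpy 1.11.5) called 47 of 10650 NOD barcodes (0.441%), under the 0.5% at which such a caller is taken to work, and no pDC, so no cell was removed.

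Cells were assigned to libraries by barcode suffix. The number of cells of each type was modelled in edgeR 4.0.16 (quasi-likelihood, offset of all named cells or of leukocytes, types with at least 20 cells, Benjamini-Hochberg adjustment), and shares and medians with exact two-sided permutation tests. Gene counts were summed per type and library, and CPM computed. Log2 folds add 5 CPM. Intervals are 95% exact binomial or Poisson, a count of 0 is given with a floor of 3 counts, and all cover counting error only. Cells were thinned to 500 UMIs for shares with a UMI, leaving out shallower cells (0 of 46 and 0 of 9 pDC). Other tools were R 4.3.3, DESeq2 1.42.0, scipy 1.17.1 and TMM factors, 1.30 to 1.53 in pDC and 0.832 to 0.857 in MC and BC. The edgeR fit and the rule for calling genes were checked on simulated counts, and the permutation tests were not. The simulated spread was a fixed value for the fit and counting error only for the gene rule, not the spread of these samples. Promoters came from RefSeq (GRCm38.p6) and gene positions from GENCODE on GRCm38.

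Named genes were Siglech, Sh3bgr, Irf8, Icam1, the 15 genes with the largest smaller fold among genes called higher with at least 30 UMIs, the 10 with most UMIs, the 8 called lower with the smallest fold, and up to 6 members of each of 30 lists. Members and lists were chosen with earlier results of these data known. List members named beyond these were chosen after their values were seen. Ifi30 and Mx2 were not analysed here.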

Additional observations from a re-analysis of the deposited data

Results flagged for a closer look

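Cells outside those named pDC also carried the markers. Among 5198 named C57BL/6 cells, none of them named pDC, 5 cells had a UMI of at least 2 of Siglech, Sh3bgr and Irf8. Of these, 3 are named BC and 2 MP, and 2 of the BC had all 3 markers. The BC held 10, 7 and 14 of the 22 identity genes, while the MP held 2 and 11. In the same order the BC held 0, 10 and 6 UMIs of the 13 B cell genes. Of these UMIs 0, 4 and 6 were Ighm and none was Cd79a. In the NOD libraries 11 cells outside pDC had at least 2 of the markers and none had all 3. In the knockout-labelled libraries these were 3 BC, 1 CD8, 2 MC with 6 and 10 identity genes, and 2 cells without a name with 4 and 8. In control library 2-2 they were 1 BC and 2 MC.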

How the results depend on the processing

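Over all named cells, the log2 fold of the pDC share was 1.62 to 2.77 with each sample left out in turn (adjusted p 0.0048 to 0.189). It was 2.39 with a replicate block (adjusted p = 0.197) and 2.83 with RLE size factors (adjusted p = 0.0579), and it kept its call with control libraries 2-1 and 2-2 apart (2.32) and with DESeq2 (2.23). Deviations from group means over 11 cell types correlated at -0.325 and -0.179 in the 2 same-numbered pairs. With 2 control samples these values are not independent, so they cannot decide whether the numbers pair the samples. Over leukocytes the sign turned to 0.33 with libraries 2-1 and 2-2 apart, 0.0896 with the replicate block and 0.38 for pDC with at least 2 markers, and ranged from -1.71 to 1.37 with samples left out, passing the threshold without control 1. The cause was not tested. The share of MC and pDC together and UMIs per cell kept their direction under every alternative run. Genes higher numbered 682, 126 and 172 with at least 1 UMI, with at least 30 UMIs and with TMM, and genes lower 652, 142 and 723. Genes lower were 645 over all 6 pooled libraries and 79 among those with at least 10 UMIs expected in pDC, a limit added after seeing the data. With a library left out they were 311 to 370 higher and 338 to 402 lower. Between knockout-labelled and control pDC, 161 to 511 genes were 2-fold higher and 54 to 197 lower with a sample left out, also added later. The number of genes tested changed as well, from 733 to 1192, against 1223 with all samples. With a knockout-labelled library left out, 22.0 to 24.6% were higher and 7.37 to 8.94% lower, against 23.9% and 9.57% with all samples. Log2 folds under alternatives were taken for the 15 genes with the largest fold and the 8 called lower with the smallest. Of these 161 log2 folds 136 stayed within 1 SD, 25 moved and none changed sign. The genes were picked for large folds, so the unchanged sign is no test. Of 160 alternative shares of cells with a UMI, 131 stayed and 29 moved. Depth limits the control side most, where 9 pDC held 9313 UMIs.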
